A study of Mus musculus with 6 samples.

Results

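Axon injury response genes are genes whose mRNA is known to rise in a neuron after its axon has been cut or crushed. A total of 9 of them were examined here out of the 55357 genes counted: *Ecel1*, *Sprr1a*, *Gal*, *Atf3*, *Sox11*, *Klf6*, *Klf4*, *Stat3* and *Socs3*. They were taken by symbol, and the set was selected on CPM values of this same contrast with the result already known, so their levels and differences are given as a description and carry no test. All 9 passed the filter on low counts (6 reads or more in any library), as did 21876 genes in all.

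The libraries came from primary neuronal cultures, made from the cortex and hippocampus of wild type C57BL/6N mouse embryos at E18. A lentivirus carrying a scrambled shRNA (shCtrl, 3 libraries) or an shRNA against *Pla2g4e* (sh*Pla2g4e*, 3 libraries) was added at DIV4 (DIV, days in vitro), and RNA was taken at DIV14. *Pla2g4e* encodes a calcium-dependent N-acyltransferase that makes lipid precursors of N-acylethanolamines. Every library had therefore received a virus of the same pLVTHM backbone, and the dose had been set in advance as the lowest that halved the *Pla2g4e* transcript, so the comparison was between partial knockdown by 1 shRNA sequence (sh2) and a scrambled control. The labels and methods name no injury treatment of these cultures, and no untransduced culture was among the libraries. Poly(A) RNA was sequenced, and between 17054717 and 23570180 reads were counted per library. Values below are read counts relative to library size (CPM) scaled with TMM factors, given as mean ± SD over 3 libraries, and the fitted log2 fold changes compare sh*Pla2g4e* with shCtrl.

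When an axon is damaged, signals that travel back to the cell body switch on a set of regeneration-associated genes. The kinase DLK and its target JNK activate c-Jun and ATF3, whereas cytokines of the interleukin-6 family act through the receptor subunit gp130 and the kinase JAK on STAT3. SOX11 and several KLF factors take part in the same programme, some promoting and some restraining axon growth. Downstream genes encode neuropeptides such as galanin, the cytoskeleton-associated protein SPRR1A and the membrane peptidase ECEL1, also called damage-induced neuronal endopeptidase. The programme is best known from sensory and motor neurons with axons in peripheral nerves, and it is weaker in neurons of the cortex and hippocampus.

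The shRNA itself is shown first, because the strand that guides silencing can also pair with other mRNAs through its bases 2 to 8, the seed, which are in capitals in the guide strand. In the target site the complementary bases are in capitals.
sh2 guide strand: tTGGCCACcaccatcttcc
sh2 target in *Pla2g4e*: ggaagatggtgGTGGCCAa
Among the 9 genes, *Atf3* alone held GTGGCCA, the match to this seed, in an annotated 3′ UTR, at bases 1429 to 1435 of the 1984-base transcript ENSMUST00000027941. The match is in capitals within its surroundings, which span bases 1419 to 1445.
*Atf3* 3′ UTR: aagcatttgtGTGGCCAcatgaactgg
The coding sequences of *Sox11*, *Klf4* and *Socs3* each held 1 match. Over all tested genes with an annotated 3′ UTR, 14.6% of 15705 held the match there, against 44.2% of the 856 that fell and 7.72% of the 479 that rose in the test across all genes, where calls were made at an adjusted p of 0.01. The part of seed pairing in any level given here was not tested.

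The knockdown showed in the counts. *Pla2g4e* stood at 38.0, 35.1 and 35.4 CPM in shCtrl and at 21.8, 14.1 and 18.7 CPM in sh*Pla2g4e* replicates, which edgeR's quasi-likelihood test gave an adjusted p of 1.24e-04 and a log2 fold change of −0.99 ± 0.13 (standard error). The lowest level of the target was that of sh*Pla2g4e* replicate 2.

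*Ecel1* (ENSMUSG00000026247, GRCm39 chromosome 1, 87075377 to 87084243, minus strand) encodes a membrane metallopeptidase of the M13 family that is made mainly in neurons and is needed for motor axons to branch in muscle. It was at 18.3, 14.1 and 11.99 CPM in shCtrl replicates 1, 2 and 3, and at 66.6, 109.1 and 56.3 CPM in their sh*Pla2g4e* counterparts. Every sh*Pla2g4e* library lay above every shCtrl library, with replicate 2 the highest. The means were 14.8 ± 3.21 and 77.3 ± 28 CPM (SD, n = 3), which gave a log2 fold change of 2.39 (standard error 0.20), or 5.24-fold. This rested on 270 to 377 reads per shCtrl library and 985 to 2360 per sh*Pla2g4e* library. The log2 fold change was lowest, at 2.06, without sh*Pla2g4e* replicate 2 and highest, at 2.57, without shCtrl replicate 1. A larger fitted log2 fold change was found for 416 of the 21876 genes tested. Of these 39 were called higher, 2 of them well expressed, with 3 or more as their average log2 CPM. *Ecel1* was chosen with this contrast known, so nothing is read from its rank. The RefSeq window from 250 bases before to 50 bases after the start of *Ecel1* (GRCm38.p6, chr1:87156307-87156606, minus strand) is printed because this gene had the largest difference among the 9.
*Ecel1* start window: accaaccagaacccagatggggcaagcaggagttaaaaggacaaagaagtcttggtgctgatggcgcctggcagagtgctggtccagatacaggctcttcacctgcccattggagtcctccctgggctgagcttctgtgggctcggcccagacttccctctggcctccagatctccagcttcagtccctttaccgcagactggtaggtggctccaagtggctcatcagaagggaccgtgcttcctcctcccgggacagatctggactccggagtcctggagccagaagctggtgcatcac
It held none of the motifs searched for on both strands: the STAT site TTCCNGGAA, the CRE TGACGTCA, the AP-1 site TGANTCA and the CACCC-box CCACCC. No match says only that these letters are not in this window.

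*Sprr1a* (ENSMUSG00000050359, chromosome 3, 92391259 to 92393202, minus strand) encodes a small proline-rich protein of the epidermal cornified envelope that is also a classic marker of regenerating axons. It was close to the detection limit, with 4 reads in each shCtrl library and 12, 18 and 4 reads in sh*Pla2g4e* replicates 1, 2 and 3. Scaled, this was 0.194, 0.201 and 0.178 CPM against 0.502, 0.832 and 0.229 CPM. Replicate 3 of sh*Pla2g4e* lay above the shCtrl libraries only through the scaling, since its read number was the same as theirs. All 12 counts of *Sprr1a* and *Gal* were even, so 4 reads may stand for fewer fragments, both reads of a pair having been counted. The log2 fold change was 1.44 with a standard error of 0.72, and it was 0.94 without sh*Pla2g4e* replicate 2. The start window of *Sprr1a* was the only one of the 9 to hold AP-1 sites, the sequence bound by Jun and Fos dimers, and is shown with them in capitals (GRCm38.p6, chr3:92485832-92486131, minus strand).
*Sprr1a* start window: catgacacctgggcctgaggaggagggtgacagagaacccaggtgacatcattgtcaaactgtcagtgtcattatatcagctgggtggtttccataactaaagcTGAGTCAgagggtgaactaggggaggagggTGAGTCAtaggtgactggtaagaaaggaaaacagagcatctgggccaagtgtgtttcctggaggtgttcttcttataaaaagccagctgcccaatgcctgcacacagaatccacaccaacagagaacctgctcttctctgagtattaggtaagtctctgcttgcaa
The sites began 146 and 116 bases before the start. An AP-1 match occurred in 7.81% of 32851 RefSeq windows of this length, a STAT match in 1.15%, a CRE in 1.79% and a CACCC-box in 31.5%. No window of the 9 genes held the STAT or CRE letters, and CACCC-boxes occurred once each in those of *Sprr1a*, *Gal* and *Atf3*, and at 2 places in that of *Stat3*. A match of this kind is a description of the sequence and does not show that a factor binds there.

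*Gal* (ENSMUSG00000024907, chromosome 19, 3459915 to 3464544, minus strand) encodes the neuropeptide galanin, which sensory neurons make in quantity after nerve injury. Its level was low, with 24, 12 and 12 reads in the shCtrl replicates and 54, 28 and 28 in the sh*Pla2g4e* replicates. In CPM it was 1.16, 0.604 and 0.533 against 2.26, 1.29 and 1.6. The groups did not overlap, but the highest shCtrl library, replicate 1, lay just under the lowest sh*Pla2g4e* library, replicate 2. Means of 0.767 ± 0.346 and 1.72 ± 0.493 CPM (SD, n = 3) gave a log2 fold change of 1.17 (standard error 0.40), which ranged from 0.91 without sh*Pla2g4e* replicate 1 to 1.59 without shCtrl replicate 1.

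*Atf3* (ENSMUSG00000026628, chromosome 1, 190902493 to 190950236, minus strand) encodes a stress-induced bZIP transcription factor and is a standard nuclear marker of injured neurons. It was at 8.05, 7.55 and 6.48 CPM in the shCtrl libraries, and reached 15.2, 26.8 and 10.2 CPM after sh*Pla2g4e*. The shCtrl libraries lay close together and below all of the others, while the sh*Pla2g4e* libraries spread widely, replicate 2 again being the highest. The means were 7.36 ± 0.802 and 17.4 ± 8.51 CPM (SD, n = 3), a log2 fold change of 1.25 (standard error 0.25). Without sh*Pla2g4e* replicate 2 it was 0.80, and without replicate 3 it was 1.51.

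**Figure D1:**
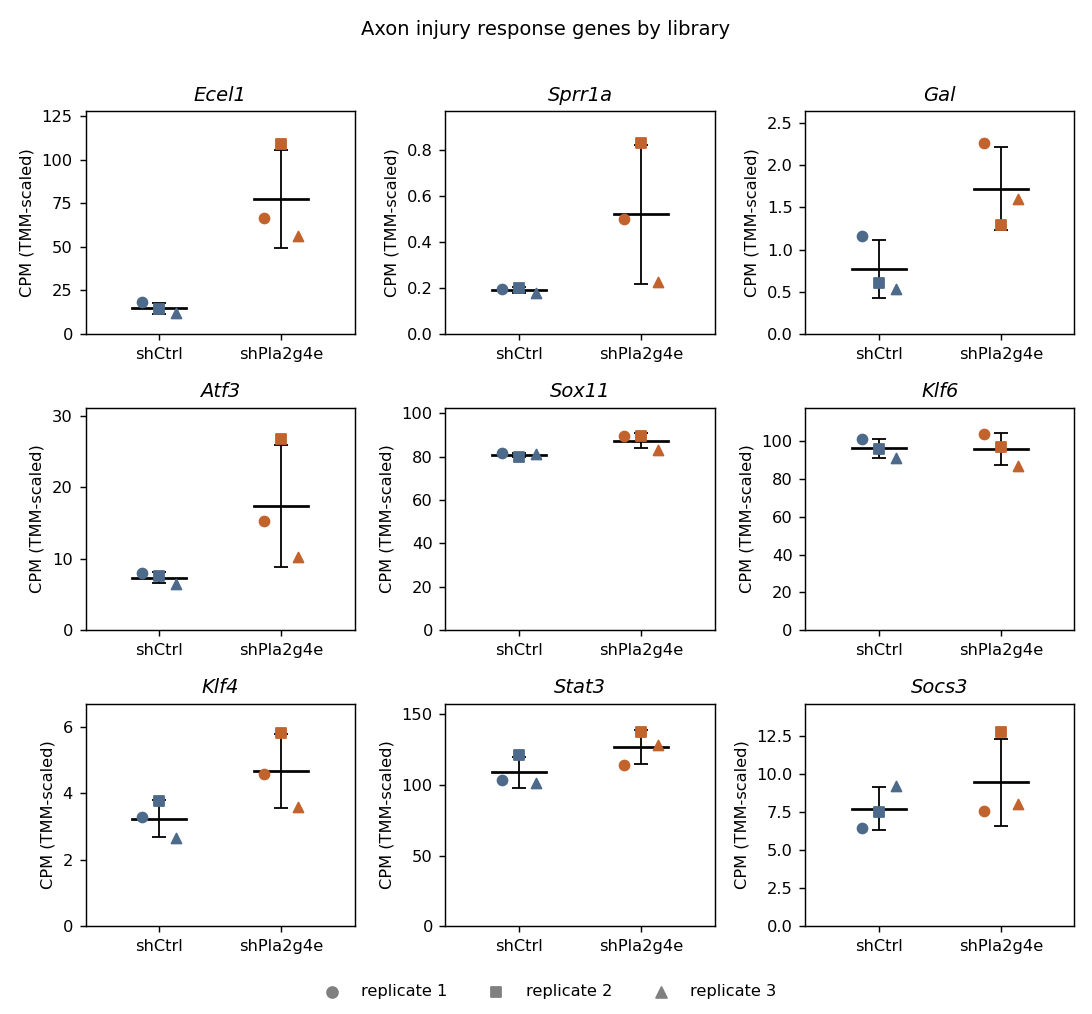
TMM-scaled CPM (vertical axes from 0, a scale for each gene) of the 9 genes in the 3 shCtrl and 3 shPla2g4e libraries. Points are libraries with the replicate number as their shape, long bars are means and whiskers 1 SD. Ecel1, Sprr1a, Gal, Atf3 and Sox11 do not overlap between groups, and the square of shPla2g4e replicate 2 is the highest of its group in 6 panels.

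The other transcription factors were far more abundant or differed less. *Sox11* (ENSMUSG00000063632, chromosome 12, 27384263 to 27392573, minus strand), which encodes an HMG-box factor of newborn and regenerating neurons, was at 81.6, 79.8 and 81.0 CPM in shCtrl and at 89.6, 89.3 and 83.2 CPM in sh*Pla2g4e* libraries. The groups did not overlap, but the distance was small, with means of 80.8 ± 0.936 and 87.4 ± 3.63 CPM (SD, n = 3) and a log2 fold change of 0.11 (standard error 0.076). Scaling by library size alone gave 0.19.

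*Klf6* (ENSMUSG00000000078, chromosome 13, 5911481 to 5920393, plus strand) belongs to the Krüppel-like factors that promote axon growth. Its libraries were at 101.2, 95.9 and 91.1 CPM in shCtrl and 103.7, 96.7 and 87.0 CPM in sh*Pla2g4e*. They overlapped fully, the log2 fold change was −0.003 (standard error 0.085), and its sign turned with the setting, between −0.06 and 0.07. *Klf4* (ENSMUSG00000003032, chromosome 4, 55527143 to 55532466, minus strand) is a relative that restrains axon growth. It was at 3.30, 3.78 and 2.66 CPM in shCtrl and 4.60, 5.83 and 3.60 CPM in sh*Pla2g4e* libraries. The lowest sh*Pla2g4e* library, replicate 3, lay under the highest shCtrl library, replicate 2, so the groups overlapped. The log2 fold change was 0.53 (standard error 0.23), and 0.35 without sh*Pla2g4e* replicate 2.

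*Stat3* and *Socs3* stand for the cytokine arm of the injury response. *Stat3* (ENSMUSG00000004040, chromosome 11, 100775924 to 100830366, minus strand), the transcription factor activated by gp130 receptors, was at 103.5, 121.0 and 101.4 CPM in shCtrl and 114.0, 137.5 and 128.0 CPM in sh*Pla2g4e* libraries. The groups overlapped, because shCtrl replicate 2 lay above sh*Pla2g4e* replicate 1. The log2 fold change was 0.22 (standard error 0.093), and 0.756% of the exon bases lie opposite *Stat5a*, whose reads the counting could not tell apart.

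*Socs3* (ENSMUSG00000053113, chromosome 11, 117856905 to 117860873, minus strand) is a target of STAT3 whose product blocks the same receptors and so limits regeneration. Its libraries were at 6.45, 7.55 and 9.24 CPM in shCtrl and 7.61, 12.8 and 8.06 CPM in sh*Pla2g4e*. Only sh*Pla2g4e* replicate 2 stood above the shCtrl range. The log2 fold change of 0.29 (standard error 0.20) came to 0.01 without that library.

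**Figure D2:**
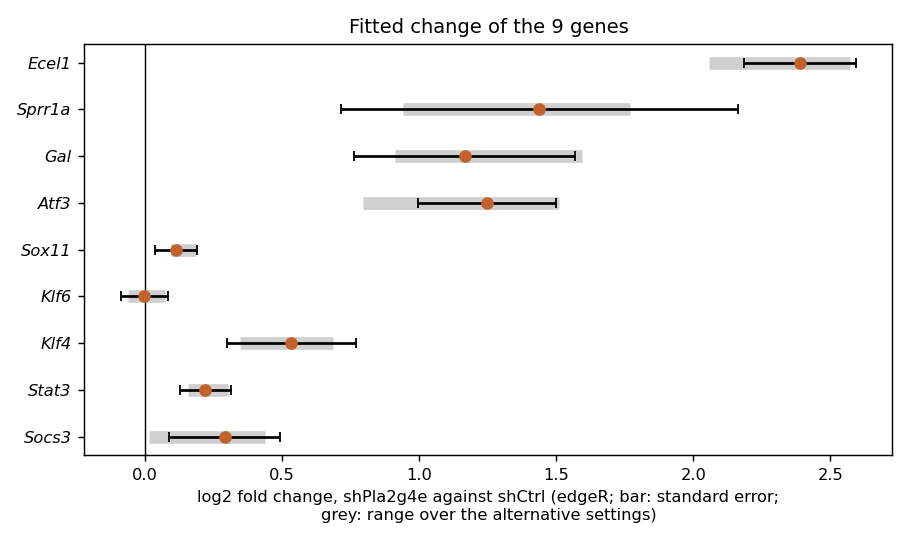
Fitted log2 fold change (horizontal axis, shPla2g4e against shCtrl, edgeR) of each of the 9 genes as a point with its standard error as a line, and the range over the alternative settings and left-out libraries as a grey band. Ecel1 stands at 2.39 with a band from 2.06 to 2.57, whereas the band of Klf6 crosses 0.

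Side by side, 8 of the 9 genes had a fitted difference above 0, and 5 did not overlap between groups, all of them higher in sh*Pla2g4e*. Of all 21876 genes tested, 15.5% did not overlap with sh*Pla2g4e* higher. The median log2 fold change of the members was 0.53, against 0.03 over all genes tested. The members had been selected with this difference known, so nothing is read from these counts or from that median. In bulk RNA, more of a transcript per cell and more cells that make it cannot be told apart.

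The difference was not equal across the replicates. Libraries carry the numbers 1 to 3 in each group, and those of equal number deviated together, so ratios were taken within each number. *Ecel1* was 3.64, 7.74 and 4.69 times as high in sh*Pla2g4e* as in shCtrl for numbers 1, 2 and 3. The ratios of *Atf3* were 1.89, 3.55 and 1.57, and those of *Sprr1a* were 2.59, 4.13 and 1.29. *Gal* followed another order, with 1.94, 2.14 and 3.003. A total of 7 genes had a ratio above 1 in all 3 numbers, the exceptions being *Klf6* (1.03, 1.01 and 0.954) and *Socs3* (1.18, 1.69 and 0.872). In 6 genes the largest ratio was that of number 2. Of all tested genes, 25.6% were higher in sh*Pla2g4e* in all 3 numbers, and the largest ratio was that of number 2 in 34.4% of the 19662 with reads in every shCtrl library. The members were chosen on this difference, so nothing is read from these counts.

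**Figure D3:**
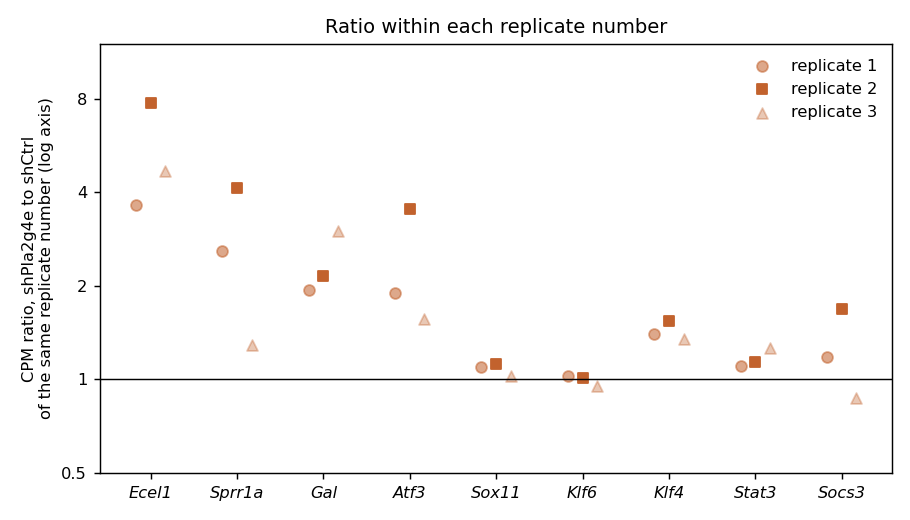
Ratio of the CPM in shPla2g4e to that in shCtrl of the same replicate number (vertical log axis, 1 means equal) for each of the 9 genes, with a symbol for each number. The ratios of Ecel1 lie between 3.64 and 7.74, those of Sox11 between 1.027 and 1.119, and the square of number 2 is on top in 6 genes.

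The sh*Pla2g4e* replicate 2 library was the highest of its group for 6 of the 9 genes, a set that held *Stat3* and not *Sox11*, the reverse of the 6 with the largest ratio, while 34.3% of all tested genes were highest there. Replicate 3, the library with the fewest reads at 17054717, was the lowest for 6. The share of all tested genes lowest there was not counted, so nothing is read from that number. Replicate 2 also had the least *Pla2g4e*, and its depth of 20863500 reads lay between those of the other 2 libraries of the group. Whether the degree of knockdown had a part in the member levels was not tested.

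Levels between genes were compared per length, as TPM, the length-scaled counterpart of CPM. In shCtrl cultures the order was *Klf6* at 89.4 ± 4.31, *Stat3* at 46.6 ± 5.03, *Sox11* at 39.8 ± 0.106, *Ecel1* at 17.3 ± 3.62, *Atf3* at 13.97 ± 1.49, *Socs3* at 10.96 ± 2.02, *Klf4* at 4.36 ± 0.771, *Gal* at 3.97 ± 1.75 and *Sprr1a* at 0.969 ± 0.0656 TPM (SD, n = 3). *Ecel1* and *Atf3*, and *Klf4* and *Gal*, were closer to each other than the larger SD of the pair. In sh*Pla2g4e* cultures *Ecel1*, at 92.8 ± 35.1 TPM, was level with *Klf6*, at 91.3 ± 8.64 TPM, within that spread. *Atf3*, at 33.9 ± 17.1 TPM, came within its SD of *Sox11*, at 44.0 ± 2.36 TPM. *Stat3* stood at 55.6 ± 5.74, *Socs3* at 13.8 ± 4.36, *Gal* at 9.10 ± 2.56, *Klf4* at 6.43 ± 1.63 and *Sprr1a* at 2.72 ± 1.62 TPM.

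The libraries also served to find genes with a pattern like that of *Ecel1*. Over the 6 libraries and the 10957 genes that averaged 3 or more in log2 CPM, the highest Pearson correlations of log2(CPM + 0.5) were those of *Tmem38a* at 0.998, *Cabp7* and *Maip1* at 0.996, *Gm47163* at 0.995 and *Acad11* at 0.994. These are descriptions, since all points share the contrast that defines the groups, and 291 genes reached 0.95. *Tmem38a*, which encodes an ion channel of intracellular membranes, followed the pattern at a far smaller size, with a fitted log2 fold change of 0.11 against 1.92 for *Gm47163*. Among the injury genes the correlation with *Ecel1* was 0.92 for *Atf3*, 0.90 for *Sox11*, 0.85 for *Sprr1a* and *Klf4*, 0.80 for *Gal*, 0.74 for *Stat3*, 0.52 for *Socs3* and 0.11 for *Klf6*.

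To see how the rest of the programme stood, 222 further genes of the injury pathways and of the members' families were counted from the fit over all genes, of which 198 were tested. The lists were made with earlier results of these data known. Of the 198, 155 averaged 3 or more in log2 CPM, against 10957 of all 21876 tested genes, *Ecel1* not counted. The shares below therefore compare genes of unlike level. Among all tested genes, 6.49% were called at an adjusted p of 0.01, 2.48% higher and 4.0% lower, and with scaling by library size alone the balance turned, from 543 higher and 876 lower to 796 higher and 609 lower. Of the 198 listed genes, 26 rose and 17 fell, and their median log2 fold change was 0.03, the same as for all genes to that precision. The counts moved when single libraries were left out, with 19 higher and 19 lower without shCtrl replicate 3, 21 and 11 without shCtrl replicate 1, 14 and 8 when replicate 2 of shCtrl was left out, 18 and 10 without sh*Pla2g4e* replicate 1, and 32 and 13 without sh*Pla2g4e* replicate 3. With scaling by library size alone the listed genes split into 33 higher and 12 lower, to be read beside the 796 and 609 of that scaling. With the replicate number as a block, 46 rose and 35 fell, beside 6.50% and 9.02% of all genes. Of the 198, 33 held a 3′ UTR match to the sh2 seed. None of the 26 that rose held one, and 3 of the 17 that fell did, namely *Klf7*, *Klf13* and *Mapk10*.

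Transcription factors of the injury response formed the first list, with 24 tested. In it 6 genes rose and 1 fell, or 9 and 2 with the block. *Jun*, the partner of ATF3 and the main target of JNK, rose from 68.8 ± 2.12 to 109.1 ± 23.5 CPM (SD, n = 3; adjusted p = 0.00133 by edgeR, with a log2 fold change of 0.67). *Fos* rose from 69.8 ± 0.998 to 100.6 ± 10.2 CPM (0.53, adjusted p = 7.11e-04), and *Jund* from 61.5 ± 1.06 to 87.9 ± 0.956 CPM (0.52, adjusted p = 2.86e-04). These 3 encode AP-1 subunits. The gene *Jund* shares 52.6% of its exon bases with *Gm11175* on the other strand and *Jun* 7.28% with *Junos*, and the counting without strand cannot separate them. *Klf7*, a Krüppel-like factor that promotes axon growth, fell from 127.0 ± 8.84 to 77.8 ± 2.97 CPM (−0.70, adjusted p = 3.24e-05).

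Genes of growth cones and the axonal cytoskeleton went in both directions, with 5 higher and 8 lower among 35 tested, or 7 and 13 with the block. *Tubb3*, the neuronal β-tubulin, fell from 303.7 ± 37.6 to 94.9 ± 3.77 CPM (adjusted p = 3.68e-08 by edgeR, with a log2 fold change of −1.68 and a standard error of 0.093). *Marcksl1*, which encodes an actin-binding protein of growth cones, fell from 545.9 ± 38.7 to 244.4 ± 18.7 CPM (−1.16). *Tuba1a*, the α-tubulin of growing axons, fell from 851.7 ± 36.7 to 476.0 ± 26.4 CPM (−0.84), with 26.2% of its exon bases shared with *Gm49450*. In contrast, *Plat*, which encodes tissue plasminogen activator, rose from 47.8 ± 2.35 to 97.4 ± 19.4 CPM (1.03). *Tubb3* and *Tuba1a* are known to rise in regenerating peripheral neurons, and here they fell in the same libraries in which *Ecel1* and *Atf3* were higher. The coding sequences of *Tubb3* and *Tuba1a* each held 1 match to the sh2 seed, and those of *Marcksl1* and *Plat* held none. The part of seed pairing in these falls was not tested.

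Of the 20 stress and survival genes tested, 3 rose and 1 fell, or 7 and 2 with the block. *Bcl2l11*, which encodes the pro-apoptotic protein BIM, rose from 10.7 ± 2.33 to 34.6 ± 9.48 CPM (adjusted p = 2.05e-05 by edgeR, with a log2 fold change of 1.70). *Hrk*, another BH3-only gene under JNK control, rose from 50.6 ± 3.82 to 85.3 ± 14.7 CPM (0.76, adjusted p = 2.64e-04). *Ddit4*, an inhibitor of mTORC1, rose by 0.45, but the call was lost without shCtrl replicate 2 (adjusted p = 0.0249) and without sh*Pla2g4e* replicate 2 (0.0155). *Hmox1*, the heme oxygenase of oxidative stress, fell from 60.3 ± 14.1 to 38.8 ± 3.96 CPM (−0.64, adjusted p = 0.00573). Its call was lost without shCtrl replicate 1 (0.0259), shCtrl replicate 3 (0.0330) or sh*Pla2g4e* replicate 1 (0.0276).

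Peptides and secreted factors, the group to which galanin belongs, rose in 8 of 19 tested genes and fell in none, with a median log2 fold change of 0.67. With the block the counts were 13 and 1. *Cck*, the neuropeptide cholecystokinin, rose from 141.4 ± 5.37 to 305.3 ± 6.65 CPM (adjusted p = 2.61e-07 by edgeR, with a log2 fold change of 1.11). *Npy*, which injured sensory neurons also make, rose from 25.3 ± 3.20 to 60.6 ± 3.14 CPM (1.26, adjusted p = 1.30e-06). The granin *Scg2* rose from 620.1 ± 93.6 to 1082 ± 56.5 CPM (0.80), and *Vgf*, a precursor of several neuropeptides, from 724.2 ± 119 to 1335 ± 178 CPM (0.88). The cytokine *Il6*, a trigger of the STAT3 arm, had 2 reads in 1 library and none in the others.

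**Figure D4:**
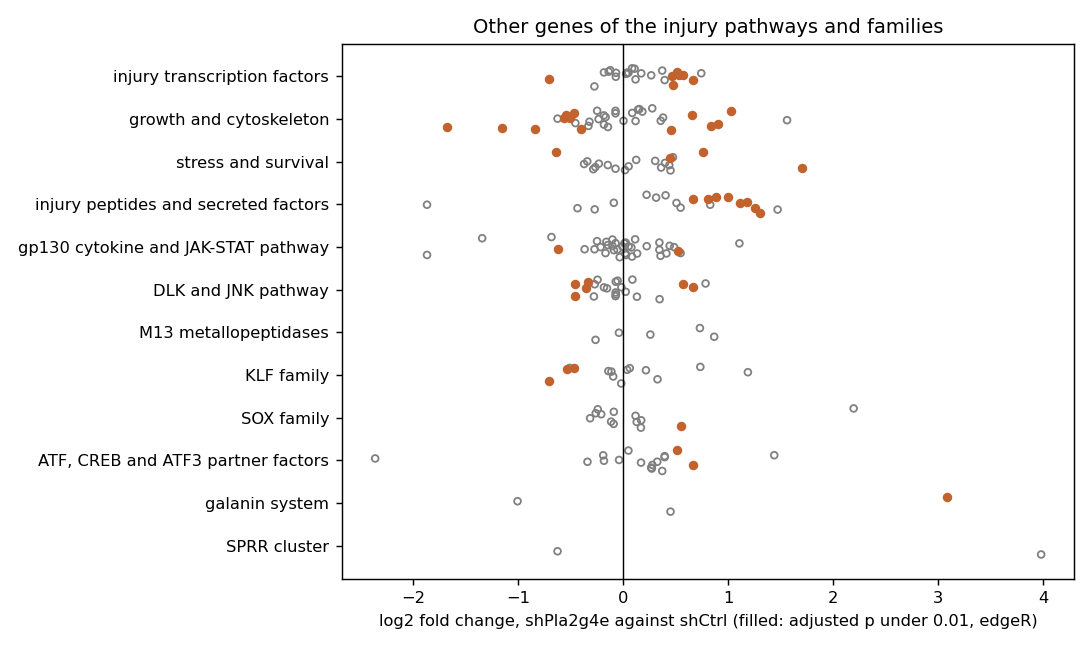
Fitted log2 fold change (horizontal axis, shPla2g4e against shCtrl, edgeR) of every tested gene in each list (rows), the 9 members left out. Filled points passed an adjusted p of 0.01: 8 peptide genes lie to the right of 0, 8 cytoskeletal genes to the left, and 1 of 37 cytokine pathway genes on each side.

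In the cytokine pathway around *Stat3* and *Socs3*, 1 of 37 tested genes rose and 1 fell, or 3 and 4 with the block. *Cntfr*, the receptor of ciliary neurotrophic factor, rose from 61.7 ± 5.67 to 88.6 ± 5.09 CPM (adjusted p = 8.59e-04 by edgeR, with a log2 fold change of 0.52). *Ptpn1*, a phosphatase that acts on JAK kinases, fell from 99.4 ± 7.47 to 64.8 ± 4.27 CPM (−0.62, adjusted p = 1.75e-04).

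The DLK and JNK pathway, upstream of *Atf3*, had 22 tested genes, of which 2 rose and 4 fell, or 4 and 7 with the block. Apart from *Jun*, described above, the genes named were lower. *Mapk8ip2*, a JNK scaffold, fell by 0.46 on the log2 scale (adjusted p = 0.00134 by edgeR), *Mapk8*, which encodes JNK1, by 0.46 (0.00178), and *Mapk10*, which encodes JNK3, by 0.36 (0.00720). Without shCtrl replicate 2 these adjusted p-values were 0.0133, 0.0180 and 0.0344, and the calls were lost. That of *Mapk10* was also lost without shCtrl replicate 1 (0.0337) and without sh*Pla2g4e* replicates 1 (0.0299), 2 (0.0212) or 3 (0.0193).

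The families of the members were counted in the same way. None of the 5 M13 peptidases tested besides *Ecel1*, which is described without a test, was called. *Ece1*, the endothelin-converting enzyme, was at 47.4 and 56.6 CPM (adjusted p = 0.205 by edgeR, with a log2 fold change of 0.26), *Ece2* had −0.04 (0.898), *Mme*, which encodes neprilysin, −0.26 (0.512), and *Mmel1* 0.73 (0.493). *Phex*, an endopeptidase of phosphate balance, was at 1.88 and 3.45 CPM (0.87, adjusted p = 0.0432), and the block gave 0.00833. *Kel* had 0 to 3 reads per library.

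Of 14 Krüppel-like factors, none rose and 3 fell, or 4 with the block, with *Klf7* as given above. *Klf13* fell from 172.4 ± 22.6 to 118.9 ± 3.18 CPM (adjusted p = 0.00103 by edgeR, with a log2 fold change of −0.54), and *Klf16* fell from 44.5 to 32.1 CPM (−0.47, 0.00550). The call of *Klf16* was lost when shCtrl replicate 1 (0.0281) or 2 (0.0433), or sh*Pla2g4e* replicate 1 (0.0132), 2 (0.0141) or 3 (0.0125), was left out. Of 13 SOX genes, *Sox12*, a close relative of *Sox11*, rose from 52.1 ± 1.496 to 76.4 ± 9.56 CPM (0.55, adjusted p = 9.18e-04). The block called 1 SOX gene higher and 2 lower. *Jun* and *Jund* were the only risers among 17 ATF and CREB genes and partners of ATF3, where the block called 7 higher.

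*Galr1*, a receptor for galanin, had 16, 2 and 2 reads in the shCtrl replicates and 74, 81 and 23 reads in the sh*Pla2g4e* replicates. In CPM this was 0.776, 0.101 and 0.0888 against 3.10, 3.75 and 1.31. Every sh*Pla2g4e* library lay above the shCtrl libraries, of which replicate 1 stood apart from the other 2. By edgeR the adjusted p was 0.00243, with a log2 fold change of 3.08 ± 0.59 (standard error). Without shCtrl replicate 1, which left 2 reads in each shCtrl library, the fitted value was 4.78, and it rested on those few reads. The call was lost without shCtrl replicate 2 (0.0173), shCtrl replicate 3 (0.0123), sh*Pla2g4e* replicate 1 (0.0112) or sh*Pla2g4e* replicate 2 (0.0129). *Galr2* had a log2 fold change of −1.01 (0.467) and *Galr3* one of 0.45 (0.789), while *Galp* had no reads. In the gene cluster around *Sprr1a*, 2 of 17 genes passed the filter and neither was called. The one with the most reads, *Lor*, which encodes loricrin, had a log2 fold change of −0.63 (0.0594), and 0.00323 with the block. The other, *Sprr2g*, a relative of *Sprr1a*, had 0, 0 and 2 reads in shCtrl and 12, 24 and 2 reads in sh*Pla2g4e* replicates 1, 2 and 3 (adjusted p = 0.0327 by edgeR), so that replicate 3 of both groups had the same read number.

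**Figure D5:**
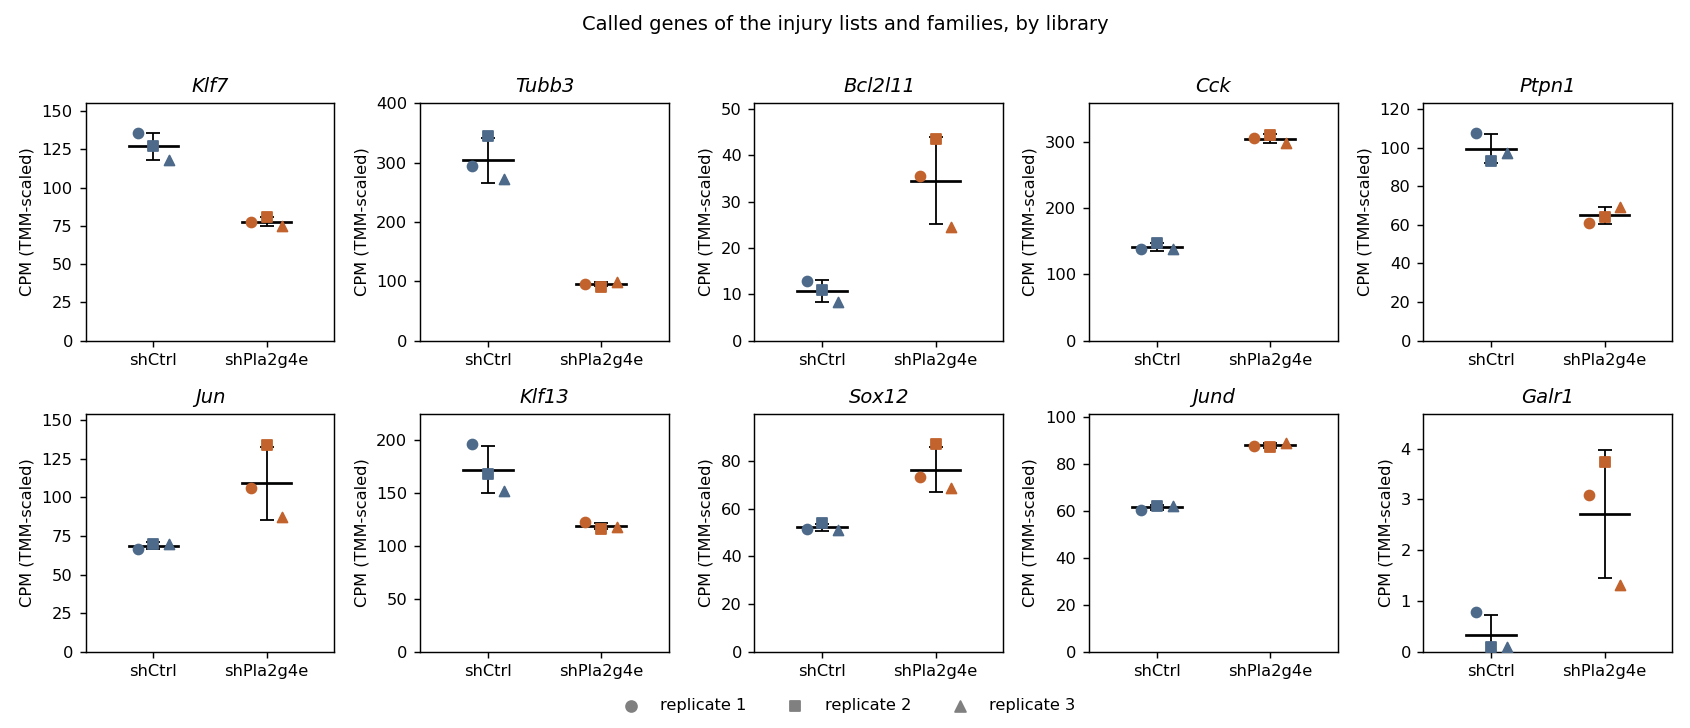
TMM-scaled CPM (vertical axes from 0) by library for the called gene with the smallest p in each list (the next one where a list shares it), with the replicate number as shape, the mean as a bar and 1 SD as whiskers. Cck and Galr1 are higher in every shPla2g4e library, and Tubb3 and Klf7 lower in every one.

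Markers of the cells a culture could hold were counted beside these genes. Pan-neuronal markers summed to 5383 to 5838 CPM in shCtrl and 4989 to 5432 CPM in sh*Pla2g4e* libraries, with 2 of 10 called in each direction, or 3 in each with the block. Those that rose, *Nefl* and *Nefm*, lie opposite each other over 32.8% and 19.2% of their exon bases, and the counting without strand cannot separate reads from those bases. Without shCtrl replicate 2 the calls of *Rbfox3* (adjusted p = 0.0271 by edgeR), *Map2* (0.0157) and *Nefl* (0.0197) were lost, and that of *Rbfox3* also without shCtrl replicate 1 (0.0247) or sh*Pla2g4e* replicate 1 (0.0132), 2 (0.0180) or 3 (0.0117). Markers of glutamatergic neurons summed to 2156 to 2344 CPM in shCtrl and, with no overlap, to 1613 to 1897 CPM in sh*Pla2g4e* libraries. Without *Slc17a7* the sums were 1412 to 1517 and 1323 to 1600 CPM and overlapped. Of the 8 tested, *Slc17a7*, the vesicular glutamate transporter of most cortical and hippocampal neurons, fell from 744.8 ± 96.99 to 299.6 ± 11.2 CPM (adjusted p = 3.69e-07 by edgeR), as did *Neurod6*, while *Slc17a6* and *Neurog2* rose. The block called 3 in each direction. Markers of GABAergic neurons summed to 818 to 891 and 749 to 843 CPM. Among those 10, *Lhx6* (log2 fold change −0.93) and *Slc32a1* (−0.64, with 24.9% of its exon bases opposite *Gm14205*) fell, and *Sst*, which is also in the peptide list, rose by 0.66, and the block called 2 higher and 3 lower. When 1 library was left out, adjusted p passed 0.01 for *Slc17a6* without shCtrl replicate 2 (0.0153) or 3 (0.0154) or sh*Pla2g4e* replicate 1 (0.0163) or 2 (0.0178), for *Neurod6* without shCtrl replicate 2 (0.0257) or sh*Pla2g4e* replicate 2 (0.0120), and for *Neurog2* without sh*Pla2g4e* replicate 1 (0.0124). Astrocyte markers summed to 2978 to 3805 and 2051 to 3244 CPM, and 3 of 10, *Aqp4*, *Slc1a2* and *Gja1*, fell, or 7 with the block, which called 1 higher. The call of *Gja1* was lost without sh*Pla2g4e* replicate 1 (0.0161) or 2 (0.0121), and that of *Slc1a2* without shCtrl replicate 1 (0.0132), 2 (0.0531) or 3 (0.0187) or sh*Pla2g4e* replicate 1 (0.0399) or 2 (0.0326). Oligodendrocyte markers summed to 525 to 594 and 550 to 652 CPM, fibroblast markers to 421 to 535 and 420 to 592 CPM, endothelial and mural markers to 28.4 to 72.3 and 33.4 to 78.5 CPM, and microglial markers to 22.3 to 30.9 and 24.9 to 25.8 CPM, with none called. The block called 3 fibroblast markers and 1 endothelial or mural marker higher and 1 oligodendrocyte marker lower. Markers of peripheral sensory neurons, the cells in which the injury response is best known, were low. They summed to 12.5 to 16.3 CPM in shCtrl and, with no overlap, to 18 to 27.8 CPM in sh*Pla2g4e* libraries. The defining genes *Isl1*, *Pou4f1* and *Scn10a* were near 0. Of 10 tested, *P2rx3*, the ATP receptor of nociceptors, rose from 3.05 ± 0.625 to 7.11 ± 1.23 CPM (adjusted p = 0.00131 by edgeR, with a log2 fold change of 1.21), a call lost without shCtrl replicate 2 (0.0112), and the block called 2 of this list higher. Among the called markers, *Slc17a7*, *Rbfox3* and *Map2* each held 1 match to the sh2 seed in a 3′ UTR. *Lhx6* and *Slc1a2* each held 2, and the other called markers, falling or rising, held none there. The part of seed pairing in the marker levels was not tested. The part of the glutamatergic, GABAergic, astrocyte and sensory neuron markers in the levels of the members and of the listed genes was not tested either.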

How the data were processed

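RNA-seq counts of 6 cultures were analysed. Reads were aligned with STAR 2.7.0d and assigned to exons with featureCounts 1.6.0 by the authors, who deposited the raw counts of each gene, not normalized. According to the methods the references were mm10 and Gencode M18, whereas the deposited files carry GENCODE vM28 and GRCm39 coordinates, which are used here. The recorded counting command sets neither strand nor read pairs, so reads of antisense genes can be included and both reads of a pair can count. Among the counts from 1 to 50, 64.9% were even, against 50.0% of those above 1000, as were all 12 counts of *Gal* and *Sprr1a*, so a low count can stand for fewer fragments than reads. Symbols were matched for 52081 of 55357 gene identifiers. Genes with fewer than 6 reads in every library were left out, as in the study, which left 21876.

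Groups were compared with edgeR 4.0.16 in R 4.3.3 (TMM, quasi-likelihood F test, Benjamini-Hochberg adjustment over all genes, threshold 0.01, no block). The alternatives were limma-voom (limma 3.58.1), which the study used, DESeq2 1.42.0, its size factors in edgeR, scaling by library size only, testing unfiltered genes or those with 10 reads or more in all libraries, a threshold of 0.05, a replicate block and leaving out each library. The code was tested on simulated data. Nothing in the labels says that the cultures of a group were independent, so p-values measure only the spread between these libraries. Library depth was 17054717 to 23570180 reads, and no pair of libraries differed by as little as sampling noise (chi-square per gene 6.03 to 15.4 within groups). Mitochondrial genes took 2.75% to 3.79% of the counts.

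Replicate numbers 1 to 3 recur in each group. Over 10908 genes, same-numbered libraries departed from their group means with correlations of 0.392, 0.189 and 0.461, and other pairs with −0.393 to 0.108. Ratios were therefore taken within each number, and a replicate block was fitted as an alternative. The main fit, with its fold changes, standard errors and adjusted p-values, ignored the numbers, and blocked values stand beside the counts and calls they change.

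The members and gene lists were chosen with earlier results of these data known. Besides the members and *Pla2g4e*, the genes named were up to 4 called genes with the smallest p per list, or the most read gene where none was called, all tested M13 and galanin system genes, the 5 genes most correlated with *Ecel1*, and defining markers near 0. *Il6*, *Kel*, *Galp*, *Sprr2g* and the called markers were named after their values were seen. Start windows are RefSeq sequences of GRCm38.p6. The sh2 sequence came from the study's oligonucleotide table, and its seed match was searched in annotated coding and 3′ UTR sequence.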

Additional observations from a re-analysis of the deposited data

How the results depend on the processing

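Over 13 alternatives each (12 for *Sprr1a*, which was not tested with at least 10 reads in every library), 8 of the 9 members kept the direction of their fitted difference. *Klf6*, at −0.003, turned to 0.072 with library size alone, 0.016 with at least 10 reads in every library, 0.036 when shCtrl replicate 1 was left out and 0.061 when sh*Pla2g4e* replicate 3 was, the lowest value with 1 library left out being −0.063. *Pla2g4e* stayed between −1.14 and −0.83. With library size alone, the log2 fold changes of the tested genes had a median of 0.10, against 0.03 with TMM. The 1419 genes called became 2349 with no filter on low counts, 3395 with the replicate block and 2813 at an adjusted p of 0.05, and 695 (without shCtrl replicate 2) to 1613 when 1 library was left out, with 928 when that was shCtrl replicate 1, 854 for sh*Pla2g4e* replicate 1 and 931 for sh*Pla2g4e* replicate 2. The 43 listed injury genes called became 81 with the replicate block, 65 at 0.05, and 22 (without shCtrl replicate 2) to 45 when 1 library was left out, with 28 without sh*Pla2g4e* replicate 1. Fewer libraries entered those fits. DESeq2 called 52 listed genes, 42 of them shared with the 43, and limma-voom 43, with 40 shared. Of the called markers, DESeq2 lost *Aqp4* (0.0124) and *Slc17a6* (0.0425), and library size alone (0.0150) and at least 10 reads in every library (0.0196) lost *Slc1a2*. The block lost no call of a named gene. Scaling by library size alone lost those of *Hmox1* (adjusted p = 0.0153 by edgeR), *Mapk10* (0.0143) and *Klf16* (0.01425), and at least 10 reads in every library lost that of *Hmox1* (0.0109) and left *Galr1* untested. At this depth *Sprr1a* and *Gal* rest on 4 to 54 reads, so their fold changes are known only roughly.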
